A study of Mus musculus with 2 samples.

Results

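The 9 genes described here are markers of cholangiocytes, the epithelial cells that line the bile ducts: Krt7, Krt19, Epcam, Sox9, Spp1, Cftr, Pkhd1, Slc34a2 and Lad1. They were picked by name from 20652 mouse genes with a probe on the arrays, at a time when their signals in the Ad-378 and Ad-Ctrl pools were already known. The processed signals and background marks of that one comparison were in view when the genes were chosen on it, so their differences are given as a description and no test is made of them. The liver samples were from male mice injected with an adenovirus in the tail vein when 8 weeks old, at a dose of 1e+09 plaque forming units. The Ad-Ctrl group was given a control adenovirus, and the Ad-378 group one labelled as overexpressing the microRNA miR-378. The livers of 5 mice made up the pool of a group, and a pool was put on 1 array, which leaves no replicate to check a difference against and no p-value to give. Both groups thus carried virus, and no liver without virus is included in the comparison. The strain, the promoter that drives the microRNA and the kinds of liver cell the virus entered are not stated in the labels used here. Livers were taken after 2 weeks per the protocols of both groups, while the sample description for Ad-378 alone gives 3 weeks, and on that reading time and virus cannot be told apart. The study title asks how miR-378, a microRNA that responds to thyroid hormone, bears on bile acid synthesis and cholesterol.

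Cholangiocytes are a small share of liver cells. They form tubes of simple epithelium held together by keratin filaments and adhesion proteins, and they modify the bile that hepatocytes secrete, chiefly by moving chloride, bicarbonate and water. A primary cilium on the duct-facing surface senses flow, and Notch signalling with Sox9 sets duct fate during development. Several of these genes are also made elsewhere in the liver, Spp1 by macrophages and activated stellate cells, Krt7 and Krt19 by mesothelium, and Sox9 by some hepatocytes next to the portal tract. In bulk tissue, fewer or more cells of a type and less or more RNA per cell cannot be told apart.

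Promoter sequence is shown for the 4 genes with the largest excess in Ad-378 (Spp1, Cftr, Slc34a2 and Lad1), and for Pkhd1, whose excess was small. Of the 9 genes, 7 had an entry in the RefSeq promoter table (build GRCm38.p6), and Krt19 and Sox9 are named only. Each line gives the 250 bases before the gene's start, 5′ to 3′ on the gene's strand, and capitals mark a match on either strand to the motifs searched: the HNF1 motif GTTAAT, the RBPJ motif TGGGAA, the TEAD motif GGAATG, the CCAAT box, the TATA box TATAAA and the AP-1 motif TGANTCA.
Spp1, chr5:104434861-104435110, plus strand, the first of its 2 starts: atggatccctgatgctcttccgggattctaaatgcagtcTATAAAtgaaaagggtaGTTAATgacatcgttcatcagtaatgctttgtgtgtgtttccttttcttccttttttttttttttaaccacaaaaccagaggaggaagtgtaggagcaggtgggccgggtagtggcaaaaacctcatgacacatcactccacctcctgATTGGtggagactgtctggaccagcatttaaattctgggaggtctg
Cftr, chr6:18170437-18170686, plus strand: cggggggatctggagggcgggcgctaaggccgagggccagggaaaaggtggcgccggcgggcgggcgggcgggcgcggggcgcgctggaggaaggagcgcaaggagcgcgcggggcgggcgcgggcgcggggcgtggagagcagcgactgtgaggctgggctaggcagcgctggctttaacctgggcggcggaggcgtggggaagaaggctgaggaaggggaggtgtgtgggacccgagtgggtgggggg
Slc34a2, chr5:53049103-53049352, plus strand: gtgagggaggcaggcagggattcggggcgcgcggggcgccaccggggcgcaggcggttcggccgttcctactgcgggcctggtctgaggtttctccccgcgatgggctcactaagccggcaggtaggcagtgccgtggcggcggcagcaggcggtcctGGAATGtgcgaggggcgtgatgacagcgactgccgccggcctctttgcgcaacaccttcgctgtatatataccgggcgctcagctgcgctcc
Lad1, chr1:135818348-135818597, plus strand: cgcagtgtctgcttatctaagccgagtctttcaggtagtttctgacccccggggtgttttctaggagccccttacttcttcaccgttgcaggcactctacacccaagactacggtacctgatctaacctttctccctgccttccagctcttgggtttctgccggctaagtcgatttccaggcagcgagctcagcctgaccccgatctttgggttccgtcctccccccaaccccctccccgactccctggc
Pkhd1, chr1:20618058-20618307, minus strand: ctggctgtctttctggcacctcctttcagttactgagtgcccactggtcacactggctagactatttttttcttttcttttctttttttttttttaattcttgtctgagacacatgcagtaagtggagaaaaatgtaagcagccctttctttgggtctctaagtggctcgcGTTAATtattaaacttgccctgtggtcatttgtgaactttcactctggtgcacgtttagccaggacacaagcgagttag

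No motif of this set was shared by the first 4 of these genes. The HNF1 motif, part of the sequence bound by the hepatocyte nuclear factors 1 of liver, bile duct and kidney, was found in Pkhd1, with its first base 79 bases before the start, and in Spp1, at 194 bases. It is held by 6.43% of the 32851 promoter windows of this length in the table. Spp1 also had a CCAAT box at 46 bases and a TATA box match at 211 bases before this start, and its other start had none of the motifs. Slc34a2 had a TEAD match at 92 bases. The CCAAT box is held by 33.8% of all windows, the TATA box by 12.4% and the TEAD motif by 12.6%. Neither the RBPJ motif (21.6% of all windows) nor the AP-1 motif (6.75%) was found among the 8 windows of the 7 genes, and Cftr, Lad1, Krt7 and Epcam held none of the motifs. Base composition of the 8 windows ran from 76.4% G and C in Cftr, through 69.6% in Slc34a2, 57.6% in Lad1, 43.6% at the first Spp1 start and 42% in Pkhd1, to 35.6% at the second Spp1 start, beside a median of 52.4% over all windows. A match is a description of letters and not a site of binding.

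The values below are processed signals, the spot intensities that the scanner software corrected for background, given with the scanner's own error of that signal. For a comparison each array was divided by its 75th percentile over gene spots (881 for the Ad-Ctrl array, 767 for the Ad-378 array), and differences are log2 values of Ad-378 minus Ad-Ctrl. The scaling adds 0.20 to every log2 difference. A spot is called well above background by the software's own mark. By that mark 63.1% of gene spots were detected in Ad-Ctrl and 65.7% in Ad-378, and 0 were saturated. The scanner error of a difference combines the errors of both arrays and covers measurement on the array, not the spread between mice. Signals of different probes are not compared with each other.

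Taken as a set, 6 of the 9 genes were well above background in Ad-Ctrl and 8 in Ad-378. Of the 6 detected on both arrays, 5 had a higher scaled signal in Ad-378 and Krt19 a lower one. Cftr and Spp1 lay past 2-fold on the higher side, and 0 genes did so on the lower side. Slc34a2 and Lad1 were detected in Ad-378 and not in Ad-Ctrl, and Krt7 in neither. Another mark of the software, for a positive and significant signal, was set on both arrays for all 9 genes. Not detected thus means here not well above background, and not absent. Among all 14288 genes detected by both arrays, 2.81% reached 2-fold higher and 4.55% reached 2-fold lower, and nothing is read from setting the count of the 9 genes beside this, since the same comparison was known when they were picked. Each gene had 1 probe matched to its name, so no second named probe bears on any of these values. The 12182 probes without a name were not searched.

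**Figure D1:**
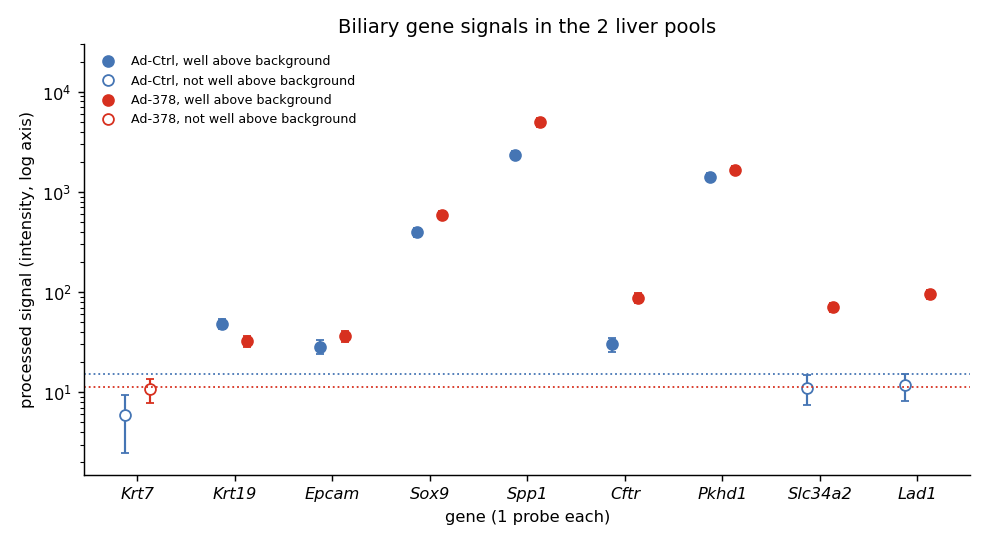
Processed signal of each gene's probe on a log axis in the Ad-Ctrl pool (blue) and the Ad-378 pool (red), before scaling, with bars for the scanner error of 1 array. Open circles were not well above background, and dotted lines mark the lowest processed signal well above background on each array, 15.2 in Ad-Ctrl and 11.3 in Ad-378. Slc34a2 and Lad1 lie below that line in Ad-Ctrl and far above it in Ad-378, and Krt7 lies below it on both.

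The keratins were dim. Krt7 is a type II keratin of duct epithelium and pairs with Krt19, a type I keratin, to form the filaments of the duct cell. Krt7 had a processed signal of 5.97 ± 3.48 (scanner error) in Ad-Ctrl and 10.7 ± 2.82 in Ad-378. It was not well above background in either pool, so no fold is given. For comparison, the 153 negative control spots reached 21.0 in Ad-Ctrl around a median of 3.46, and 7.52 in Ad-378 around a median of 2.60. Krt19 was detected in both, at 48.1 ± 5.73 in Ad-Ctrl and 32.5 ± 3.98 in Ad-378. Krt19 was thus the lower in Ad-378, at -0.37 on the log2 scale (scanner error 0.25). The 95% range of the scanner error ran from -0.85 to 0.12 and included 0. The Krt19 ratio of Ad-378 to Ad-Ctrl was 0.68 before scaling and 0.78 after it. The Krt19 difference was nearly gone on the series matrix (-0.08) and after normexp without outlier spots (-0.07), and was -0.96 in the normexp fit on all spots.

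Of the adhesion and anchoring genes, Epcam was detected on both arrays and Lad1 in Ad-378 alone. Epcam is an adhesion protein on the sides of epithelial cells and is used to sort cholangiocytes and liver progenitors. Its processed signal was 28.6 ± 4.61 in Ad-Ctrl and 36.5 ± 4.57 in Ad-378. The Epcam difference was 0.55 with a scanner error of 0.29, and its 95% range, -0.03 to 1.13, included 0. The Epcam ratio of Ad-378 to Ad-Ctrl was 1.28 before scaling and 1.46 after it. In the normexp fit on all spots the Epcam difference was -0.87. Lad1 encodes ladinin, an anchoring filament protein of basement membranes. Its processed signal was 11.7 ± 3.50 in Ad-Ctrl, below the lowest detected signal there, and 95.8 ± 9.92 in Ad-378. Set against that lowest detected signal of 15.2, Lad1 was 7.24-fold higher in Ad-378 after scaling, a bound that leaves out the scanner error. On the deposited series matrix, which holds raw median signals with no background subtraction, the bound for Lad1 was 2.73-fold, from raw median signals of 57.5 and 136, and in the normexp fit on all spots it fell under 1.

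Sox9, the transcription factor that marks duct cells and their precursors, was the one gene of the set measured in more than 1 spot, its probe being printed 10 times on each array. In Ad-Ctrl the 10 spots ran from 364 to 448 in processed signal, with a median of 395 and a mean of 398 ± 22.1 (SD over spots). In Ad-378 they ran from 566 to 622, with a median of 589 and a mean of 592 ± 19.1. The spots of the 2 arrays did not overlap, before scaling or after it: as a percent of the 75th percentile they ran from 41.3 to 50.9 in Ad-Ctrl and from 73.8 to 81.1 in Ad-378. Spots of 1 array share 1 pool of RNA and are not replicates of the group. The log2 difference of Sox9 was 0.77, a 1.71-fold higher signal, with a scanner error of 0.20 and a 95% range of 0.37 to 1.17. The SD of the log2 signal over spots was 0.08 in Ad-Ctrl and 0.05 in Ad-378, smaller than the scanner error.

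**Figure D2:**
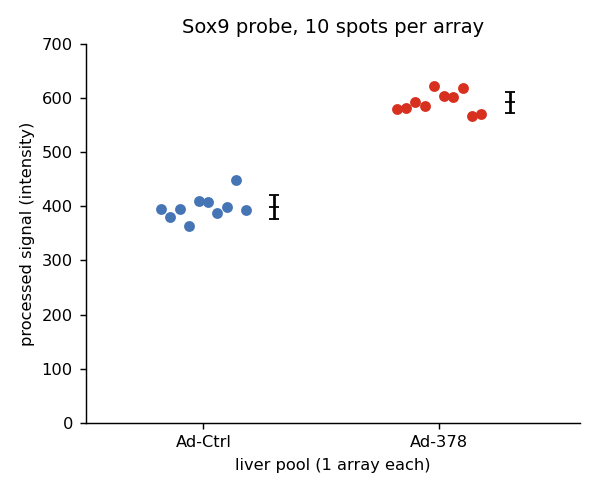
Processed signal of the 10 spots of the Sox9 probe on each array, with the mean and SD over spots in black. The spots lie between 364 and 448 in the Ad-Ctrl pool and between 566 and 622 in the Ad-378 pool, and differ by less within an array than between the arrays.

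Spp1 encodes osteopontin, a secreted phosphoprotein that binds integrins, made by duct cells and also by macrophages and activated stellate cells. Its processed signal was 2344 ± 234 in Ad-Ctrl and 4997 ± 500 in Ad-378. Spp1 was 2.45-fold higher in Ad-378, or 1.29 on the log2 scale (scanner error 0.20, 95% range 0.89 to 1.69). Among the 3572 brightest genes by mean signal, which include Spp1, 1.48% were at least 2-fold higher in Ad-378. The difference stayed between 1.21 and 1.46 under the 6 other settings that could change it.

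Genes listed for other cells known to make Spp1 are given here as a description. All 7 genes listed for Spp1-expressing macrophages were detected on both arrays and were lower in Ad-378, 4 of them at least 2-fold (2 to 6 under the other settings). These were Mmp12, a macrophage elastase (-2.49), Gpnmb, a lysosomal glycoprotein (-1.25), Lgals3, the lectin galectin-3 (-1.09), and Trem2, a lipid-sensing receptor (-1.06). Their summed scaled signal was 30.2 times the 75th percentile in Ad-Ctrl and 15.3 times in Ad-378. The Kupffer cell and macrophage list was lower in 9 of 9 genes, 2 of them at least 2-fold (2 to 4 under the other settings), with a summed scaled signal of 92.7 and 48.7 times the 75th percentile; Timd4 turned its sign under 1 setting, and Cd68 had no named probe. The largest were the Kupffer cell secretory protein gene Cd5l (-1.13), the macrophage surface marker gene Adgre1 (-1.04), the scavenger receptor gene Marco (-0.92) and the complement receptor gene Vsig4 (-0.90). Csf1r, counted as lower by its brightest probe (-0.88), ran up to 0.35 over its 3 probes, so its direction depended on the probe. The stellate cell and fibroblast list was also lower in 9 of 9 detected genes, 6 of them at least 2-fold (4 on the series matrix and after either normexp fit), with sums of 71.0 and 35.6; Lrat turned its sign under 2 settings and Des was not detected. The largest were Col3a1 (-2.71), Col1a1 (-2.23), the matrix proteoglycan gene Lum (-1.94) and Col1a2 (-1.64), of which the Col genes encode fibrillar collagen chains. Over all 14288 genes, 4.55% were at least 2-fold lower in Ad-378 and 53.6% had a positive difference. These lists were chosen with earlier results of these data known, so nothing is read from their counts. The part of any of these cells in the Spp1 signal was not tested.

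The transport genes Cftr and Slc34a2 were dim in Ad-Ctrl and brighter in Ad-378. Cftr is the chloride channel that secretin opens in the duct-facing membrane, which starts bicarbonate and water secretion. Its processed signal was 30.1 ± 4.74 in Ad-Ctrl and 87.9 ± 9.22 in Ad-378, both well above background. Cftr was 3.35-fold higher in Ad-378, or 1.74 on the log2 scale (scanner error 0.27, 95% range 1.21 to 2.28). Among the 3572 dimmest genes detected, which include Cftr, 4.79% were at least 2-fold higher. The size of the Cftr difference depended on how background was treated: it was 0.99 on the series matrix and 0.87 after normexp correction without outlier spots, both just short of 2-fold, and -0.37, with its sign turned, in the normexp fit on all spots, whose fitted background for Ad-Ctrl was -175. The raw median signals of the Cftr spot were 74.5 and 128, over local backgrounds of 32 and 34, so local background was a large part of the raw signal in Ad-Ctrl.

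Slc34a2 encodes a sodium-dependent phosphate cotransporter, known best from intestine and from alveolar cells of the lung. Its processed signal was 11.1 ± 3.69 in Ad-Ctrl, not well above background, and 70.9 ± 7.59 in Ad-378. Taking the lowest detected Ad-Ctrl signal as the bound, Slc34a2 was 5.35-fold higher in Ad-378 after scaling, again without the scanner error. The bound was 2.31-fold on the series matrix values and 2.00-fold, just under the threshold, after normexp without outlier spots, and it too fell under 1 in the fit on all spots. The highest of the 153 negative control spots in Ad-Ctrl, at 21.0, lay above both the Slc34a2 and the Lad1 signals there. Across the arrays, 722 of 20652 genes (3.5%) were well above background in Ad-378 and not in Ad-Ctrl, and 338 the other way round. Of those 722, 14.7% had a bound of at least 2-fold, Slc34a2 and Lad1 among them.

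Pkhd1 encodes fibrocystin, a protein of the primary cilium whose loss causes recessive polycystic kidney disease with malformed bile ducts. Its processed signal was 1421 ± 142 in Ad-Ctrl and 1666 ± 167 in Ad-378. The Pkhd1 difference was 0.43, or 1.35-fold, with a scanner error of 0.20 and a 95% range of 0.03 to 0.83. Before scaling, the signals of the pools overlapped within 1 scanner error of each, and 0.20 of the difference came from the scaling. Under the 6 other settings that could change it, it stayed between 0.39 and 0.56.

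**Figure D3:**
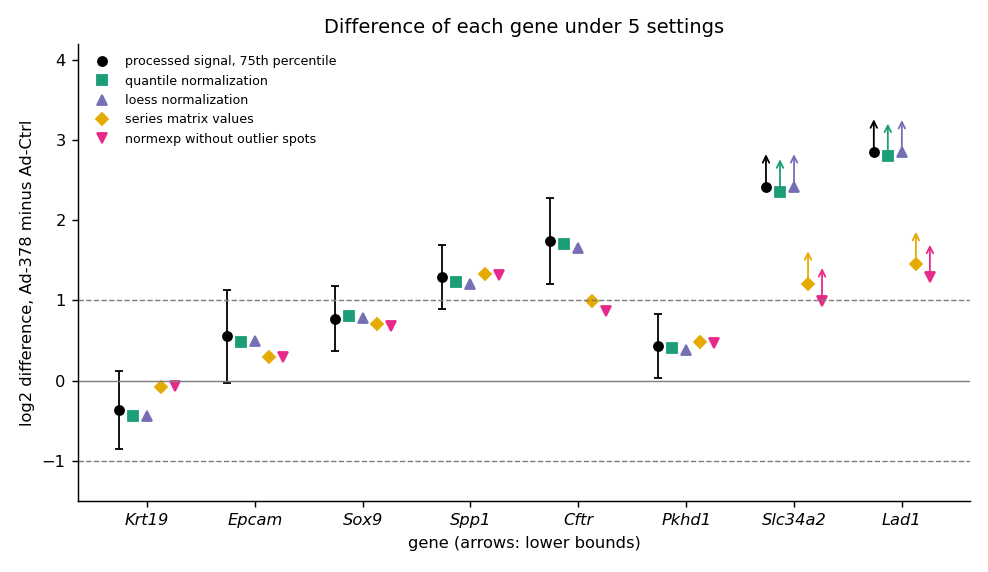
Log2 difference, Ad-378 minus Ad-Ctrl, of the 8 genes detected on at least 1 array, under 5 settings; bars show the 95% range of the scanner error of the main values, arrows mark lower bounds, and dashed lines mark 2-fold. The settings lie close together for Spp1, Sox9 and Pkhd1, whereas Cftr, Slc34a2 and Lad1 are smaller after normexp and on the series matrix; the normexp fit on all spots is not drawn.

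Other genes listed for bile ducts, apart from the 9, lay on both sides. Of 65 genes in 6 lists of duct keratins and junctions, surface and secreted products, transport, transcription, cilium and Notch or YAP genes, 56 were detected on both arrays, 23 with a positive and 33 with a negative difference. At least 2-fold, 2 were higher and 3 lower, and on the series matrix 2 were higher and 1 lower. Over all 14288 genes, 2.81% passed this threshold upward and 4.55% downward in the main values. The 2 and 3 of 56 genes are thus not read as a feature of bile duct genes. The median of the 56 genes was -0.12, beside 0.04 over all 14288 genes, of which 53.6% were positive. Summed over all 65 genes, the scaled signal was 107 times the 75th percentile in either pool, a sum in which bright probes weigh most. Atp1b1, Krt18 and Cldn3 are among these bright probes. The part of duct cells in the signals of these lists was not tested. Turned signs are counted below over 7 settings, without the normexp fit on all spots, in which Ocln, Sctr, Ehf, Dcdc2a, Lrat, Wt1, Cel, Stab2 and Ms4a1, of the list genes named here, turned theirs too.

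Keratins and junction genes were split, 5 of 10 positive, with a median of 0.01 whose sign turned under 3 of 7 settings. Krt23, a stress-responsive duct keratin (0.80), and the adhesion protein E-cadherin gene Cdh1 (0.79) were higher in Ad-378. Krt8, the keratin that hepatocytes share with ducts, was lower (-0.77). Ocln, a tight junction gene, had 0.60 at its brighter probe and 0.13 at the other. Cldn4, a tight junction gene used as a duct marker, was not well above background in either pool.

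Surface and secreted products had 3 positive and 6 negative differences among 9 genes, with a median of -0.59 (-0.28 after normexp without outlier spots), and Tff2 and Ggt1 were not detected. The trefoil factor gene Tff3, a mucosal repair peptide, was higher, at 1.25, with processed signals of 2337 in Ad-Ctrl against 4858 in Ad-378. Wfdc2, a secreted protease inhibitor of epithelia, was lower, at -1.66, with signals of 2378 against 654, and its 2 probes gave -1.66 and -1.65. Cd24a, a surface glycoprotein of duct and progenitor cells, had -0.76 and Anxa13, an epithelial annexin, -0.70, which was -0.34 on the series matrix and -0.17 after normexp without outlier spots.

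Transport genes other than Cftr and Slc34a2 had 3 positive and 5 negative differences among 8 genes, none at least 2-fold, with a median of -0.23. The lowest were Slc10a2, the bile acid uptake carrier of the duct cell (-0.93), Itpr3, the calcium release channel beneath the duct-facing membrane (-0.70), Slc12a2, the basolateral chloride loader (-0.54), and the sodium pump subunit gene Atp1b1 (-0.34). The highest of the 8 was 0.25, for the secretin receptor gene Sctr, and Slc9a3 and Slc5a1 were not detected. Sctr is named here after its value was seen.

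Transcription factors had 3 positive and 3 negative differences, with a median of -0.01 whose sign turned under 3 of 7 settings. Elf3, an epithelial factor of the ETS family, was the lowest at -1.15 (-0.58 on the series matrix and -0.50 after normexp without outlier spots), and Onecut2, a factor of liver and duct development, the highest at 0.44. Grhl2 (-0.18; its sign turned under 1 setting) and Ehf (0.12) lay within the scanner error. Sox4, a relative of Sox9, was detected in Ad-Ctrl and not in Ad-378, with a bound short of 2-fold, and Onecut1 in neither.

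Cilium and cyst genes, the group to which Pkhd1 belongs by function, had 4 positive and 7 negative differences among 11 genes, none at least 2-fold, with a median of -0.12. They ran from Cys1, a cilium membrane protein (-0.39), to Dcdc2a, a microtubule-binding protein of the cilium (0.39; 0.24 on the series matrix), with Ift88, a cilium transport protein, at -0.30 and Bicc1, an RNA-binding protein of tubule cells, at -0.24.

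Genes of the Notch and YAP pathways, targets included, had 5 positive and 7 negative differences among 12 genes, with a median of -0.27. Ankrd1 was not detected. The receptor gene Notch1 had 1.48 at its brighter probe and -0.45 at the other, so its direction depended on the probe. Hey1, a Notch target, was lower, at -1.36 (-0.99 on the series matrix and -0.89 after normexp without outlier spots), Notch3 had -0.75 and Heyl, another Notch target, -0.63. On the series matrix Notch3 was at -0.33 and Heyl at -0.30, and after normexp without outlier spots at -0.26 and -0.17.

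**Figure D4:**
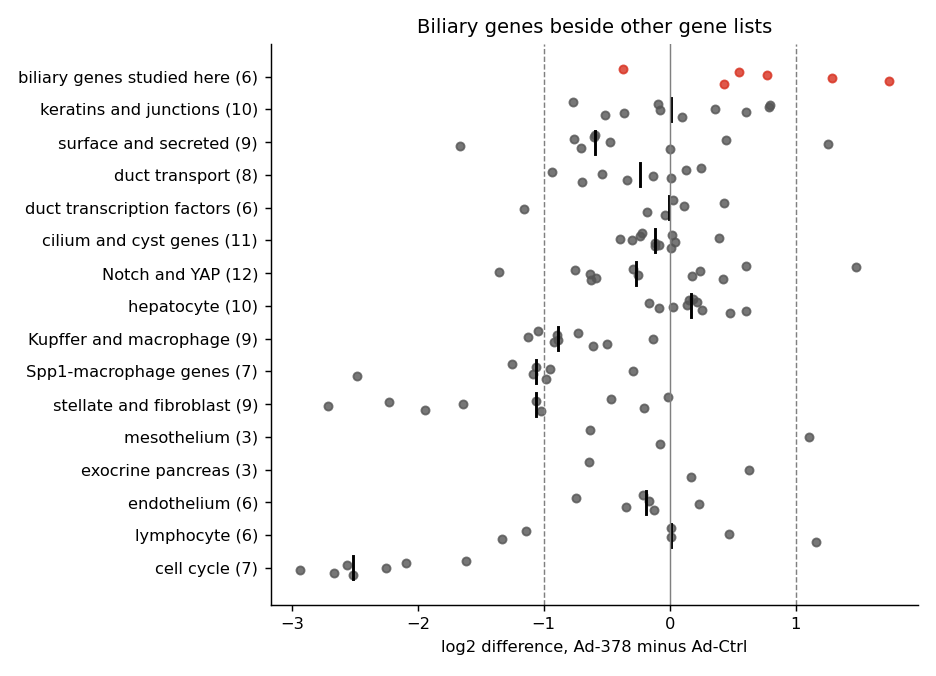
Log2 difference, Ad-378 minus Ad-Ctrl, of each gene well above background on both arrays, with the number of such genes in brackets; the 6 biliary genes described here are red, other lists grey, black bars mark the medians of lists with at least 5 such genes, and dashed lines mark 2-fold. The other bile duct lists have genes on both sides of 0, with medians from -0.59 to 0.01, whereas every plotted gene of the macrophage, stellate cell and cell cycle lists lies to the left of 0.

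Markers of other epithelia were detected in part. Of 6 mesothelial genes, Msln (-0.63; -0.30 after normexp without outlier spots), Gpm6a (-0.08; its sign turned under 2 settings) and Wt1 (2.15-fold higher; 0.52 in log2 on the series matrix values) were detected on both arrays, Upk3b in Ad-378 at a bound of 1.01-fold, and Upk1b and Lrrn4 in neither. Their summed scaled signal was 0.267 times the 75th percentile in Ad-Ctrl and 0.263 in Ad-378. Of 6 exocrine pancreas genes, Ctrb1 (0.63), Cel (0.17) and Cela1 (-0.64) were detected on both arrays. Ctrb1 had signals of 371 in Ad-Ctrl against 501 in Ad-378, and Cela1 was at -0.12 after normexp without outlier spots. Cpa1 was detected in Ad-378 alone, at a bound of 0.90-fold, which shows no excess, and 2 genes in neither. The sums of this list were 0.556 in Ad-Ctrl and 0.777 in Ad-378. Hepatocyte markers, which define the labelled tissue, were detected in 10 of 10 genes on both arrays, with sums of 745 and 831. Hpd (0.60), Asgr1 (0.48), Tdo2 (0.25) and Ttr (0.22) differed most, and the list's median of 0.17 was -0.03 after loess normalization. Endothelial genes were detected in 6 of 6, with 1 positive and 5 negative differences and sums of 45.1 and 37.6, led by Lyve1 (-0.75), Pecam1 (-0.35), Kdr (0.23) and Stab2 (-0.21). Lymphocyte genes were detected in 6 of 7, with 4 positive and 2 negative differences and sums of 10.1 and 10.6, led by Gzma (-1.34), Ms4a1 (1.16, and 0.47 on the series matrix values), Cd8a (-1.14, and -0.75 on the series matrix) and Cd4 (0.47), and their median of 0.01 turned its sign under 6 of 7 settings. The parts of mesothelium, pancreas, hepatocytes, endothelium and lymphocytes in the signals of the 9 genes were not tested.

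The cell cycle list was lower in Ad-378 in 7 of 7 genes, each at least 2-fold (6 of 7 after normexp without outlier spots, where Top2a was at -0.86), with a summed scaled signal of 14.2 times the 75th percentile in Ad-Ctrl and 2.59 in Ad-378. Cdc20 (-2.94), Aurka (-2.67), Cdk1 (-2.57) and Mcm6 (-2.51), which act in mitosis and DNA replication, differed most. Over all 14288 genes, 4.55% were at least 2-fold lower in Ad-378 and 53.6% had a positive difference. This list too was chosen with earlier results of these data known. Sox9, Spp1 and Cftr were thus higher in the pool with the lower cell cycle signal, and the relation between them was not tested.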

How the data were processed

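Total liver RNA of 2 pools was labelled with Cy3 from 0.5 micrograms and hybridised to 1-colour Agilent arrays with 43020 gene spots. The labels' extraction protocol describes a blood RNA kit with globin removal, although the tissue is liver. The deposited scanner values are spot intensities, background-subtracted and detrended within the array per the file headers, which give Feature Extraction 11.0.1.1, whereas the submitters' processing notes name 9.1. The deposited series matrix holds intensities equal to the raw median signal in 100% of values. Other deposited values are marks for control, outlier, saturated and detected spots.

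Control spots and 206 gene spots marked as outliers on either array were left out, spots of a probe were averaged as log2 values, and each array was divided by its 75th percentile. Probes were named where the RefSeq identifier, without version, matched a single gene of a GRCm38.p6 table: 27219 of 39401 probes. A gene took its brightest probe detected on both arrays. A gene detected on 1 array has a lower bound, its bright value over whichever was larger on the other array, its own signal or the lowest detected signal. The bound takes no account of the scanner error. With 1 array per group no test was run, and the number of arrays limits the precision. The members and the 15 other gene lists were chosen with earlier results of these data known, and of each list up to 4 genes with the largest differences are named, together with genes that carry a detection call.

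The alternatives were quantile and loess (span 0.3) normalization, another 75th percentile, the series matrix values, normexp (offset 50), the mean over probes, no background filter, and other fold thresholds. The steps were checked on simulated arrays. Python 3.11.15, numpy 2.4.6, pandas 2.3.3, statsmodels 0.14.6, R 4.3.3 and limma 3.58.1 were used.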

Additional observations from a re-analysis of the deposited data

How the results depend on the processing

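No paired analysis was possible because replicate 1 is the sole sample of either group. Normexp fitted without outlier spots was added after seeing the data, since the fit on all spots gave Ad-Ctrl a background of -175, and 4.403 once 331 outlier spots were left out. The lowest Ad-Ctrl spot had a signal of 81 against a local background of 6305, and its own part was not tested. In the fit on all spots the differences were -0.96 for Krt19, -0.87 for Epcam and -0.37 for Cftr, both with the sign turned, and the bounds fell under 1, at 0.750 for Slc34a2 and 0.885 for Lad1. On the series matrix values Cftr was at 0.99, Slc34a2 at a bound of 2.31-fold and Lad1 at 2.73-fold. After normexp without outlier spots Cftr was at 0.87, Slc34a2 at 2.00-fold (1.998) and Lad1 at 2.44-fold. Both settings use raw median signals in place of the processed signal, and the cause of the smaller values was not tested apart. Sox9 (0.46 to 0.81), Spp1 and Pkhd1 kept their direction and their side of 2-fold under the 6 settings that could change them, and Krt19 (-0.96 to -0.07) kept its sign. The mean over probes and no background filter cannot change these genes, which have 1 named probe each and were detected on both arrays. Quantile and loess normalization and the other percentile left the 6 genes detected on both arrays within the 95% range of the scanner error of their main values.

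Genes at least 2-fold higher numbered 402 and at least 2-fold lower 650. They were 225 and 389 on the series matrix values, 165 and 1318 in the normexp fit on all spots, 202 and 348 without outlier spots, and 1047 and 1172 with no background filter, where dim probes enter. At 1.5-fold they were 1234 and 1744, and at 3-fold 105 and 204. The median over all genes moved from 0.04 to -0.16 in the normexp fit on all spots. Signal over background limits Krt7, Krt19, Epcam, Cftr, Slc34a2 and Lad1, all below 100 in processed signal.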
